A study of Mus musculus with 21 samples.

Results

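The wells described here are fibroblasts of embryonic mouse back skin with high levels of Aspn, Kera, Nppc and Mfap4. They were picked with a pair of scores. Each score is the mean of ln(1 + count per 10000) over 4 genes. Of 1371 wells whose name begins with Fb (fibroblast), 1155 held at least 3000 unique molecular identifiers (UMIs, the tags that count RNA molecules). In a first step, the 130 wells with the highest score of Mfap5, Sema3c, C1qtnf3 and Fndc1 were dropped. In the second step, the 120 remaining wells with the highest score of Aspn, Kera, Nppc and Mfap4 were taken as members. The other 905 remaining wells are called the other kept wells below. Members were thus 120 of 1155 fibroblast-named wells, in a table of 1967 wells.

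All wells came from CD1 mouse embryos at E15.0. The table has a row for eGFP, a reporter gene, whose values are not given here. Single cells were sorted into wells and their RNA was sequenced by SORT-seq (CEL-Seq2 run by robots, with UMIs), and the labels name no mutation or treatment for these libraries. Members and comparison wells therefore share strain, age and tissue, and came from the same 7 libraries (libraries 1 to 7), each with between 9 and 22 members. The labels do not say whether the Fb name came from the sort or from clustering, nor whether the libraries came from separate animals, which makes the spread behind each p-value that of libraries and perhaps technical.

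Back skin at this age has a dermis in which layers of fibroblasts differ in what they express. Fibroblasts below the epidermis respond to WNT signals and can gather into dermal condensates, the niches of the hair follicles. Deeper fibroblasts lay down more matrix and border on fascia, fat and muscle. Asporin (Aspn) and keratocan (Kera) are small leucine-rich proteoglycans, a family of secreted proteins that bind collagen fibrils. Nppc encodes C-type natriuretic peptide, which signals through a receptor that makes cyclic GMP, and Mfap4 encodes a glycoprotein of elastic microfibrils.

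The 250 bases before the RefSeq start (GRCm38, the same assembly as mm10) are printed for 6 genes on which the results below turn, to show the promoters of genes that moved in opposite directions. The first 3 are Cpm (chr10:117629250-117629499, plus strand), Rgcc (chr14:79301636-79301885, minus strand) and Epha3 (chr16:63864176-63864425, minus strand), which were higher in members. The last 3 are Wif1 (chr10:121033754-121034003, plus strand), Sfrp5 (chr19:42202253-42202502, minus strand) and Lix1 (chr17:17402436-17402685, plus strand), which were lower. They are the leading genes whose sole RefSeq promoter window ends where the gene begins. Capitals mark matches, on either strand, to the GC box GGGCGG, the CCAAT box CCAAT, the TATA box TATAAA or the TCF/LEF motif CTTTGAT.
Cpm: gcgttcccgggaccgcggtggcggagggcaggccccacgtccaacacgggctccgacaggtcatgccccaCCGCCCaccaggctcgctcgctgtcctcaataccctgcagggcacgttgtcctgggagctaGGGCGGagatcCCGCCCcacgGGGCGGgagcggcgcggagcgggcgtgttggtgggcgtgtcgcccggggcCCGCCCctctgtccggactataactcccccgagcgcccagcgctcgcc
Rgcc: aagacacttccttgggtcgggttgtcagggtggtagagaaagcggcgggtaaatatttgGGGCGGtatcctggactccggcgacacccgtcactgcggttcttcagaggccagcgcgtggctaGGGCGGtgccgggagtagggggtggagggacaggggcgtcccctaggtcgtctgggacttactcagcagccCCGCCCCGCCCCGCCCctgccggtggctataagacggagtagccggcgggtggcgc
Epha3: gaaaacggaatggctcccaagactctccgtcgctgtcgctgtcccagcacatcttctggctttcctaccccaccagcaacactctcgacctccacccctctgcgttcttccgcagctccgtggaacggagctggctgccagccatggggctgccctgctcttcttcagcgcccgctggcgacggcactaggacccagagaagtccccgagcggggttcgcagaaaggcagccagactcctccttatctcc
Wif1: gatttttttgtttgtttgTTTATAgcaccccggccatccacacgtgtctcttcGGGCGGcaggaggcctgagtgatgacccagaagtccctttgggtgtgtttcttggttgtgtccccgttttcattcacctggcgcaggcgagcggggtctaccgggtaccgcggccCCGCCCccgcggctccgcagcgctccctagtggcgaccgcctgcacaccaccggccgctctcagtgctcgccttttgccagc
Sfrp5: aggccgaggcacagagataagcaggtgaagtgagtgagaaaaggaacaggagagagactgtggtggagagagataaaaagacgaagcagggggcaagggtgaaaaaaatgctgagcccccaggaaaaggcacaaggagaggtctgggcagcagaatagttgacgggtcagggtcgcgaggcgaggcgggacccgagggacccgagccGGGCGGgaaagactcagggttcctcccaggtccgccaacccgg
Lix1: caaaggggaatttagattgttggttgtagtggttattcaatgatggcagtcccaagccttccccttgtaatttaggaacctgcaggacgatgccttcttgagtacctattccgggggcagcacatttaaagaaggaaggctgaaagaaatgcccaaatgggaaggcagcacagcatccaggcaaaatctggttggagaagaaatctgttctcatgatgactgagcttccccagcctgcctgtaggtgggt
The GC box matched 5 times before Cpm and 5 times before Rgcc, 2 times before Wif1 and 1 time before Sfrp5. At least 1 match lay in 32.7% of all 32851 promoter windows of this length. The TATA box matched 1 time, on the reverse strand before Wif1, against 12.4% of all windows. Neither CCAAT (33.8% of all windows) nor CTTTGAT (3.21%) was found in any of the 6 windows.

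The members' own score genes are given as a description, since they chose the wells. Aspn had at least 1 UMI in 120 of 120 members and Mfap4 in 120, Nppc in 102 and Kera in 61. Levels are in CPM, the share of all UMIs of the summed wells scaled to a fixed total of 1e+06 (not to be confused with the gene Cpm). Over the libraries, Aspn lay between 915 and 1776 CPM in members (median 1231), between 21.6 and 46.5 CPM in the other kept wells, and between 808 and 1135 CPM in the dropped wells. Aspn was thus high in members and in dropped wells alike. Kera was at 131 CPM over all members, 3.93 CPM in the other kept wells and 32.5 CPM in the dropped wells. For Nppc these levels were 264, 6.27 and 36.0 CPM. All 4 genes had a UMI in 54 members, 3 of them in 55 members and 2 of them in 11. Kera, which gives the wells part of their name, was therefore detected in 61 of the 120.

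The limits of the selection were narrow. The last member had a second score of 1.064 and the next well 1.056, with 10 members and 8 other kept wells within 0.1 of the limit. The median second score was 1.50 in members, 0.113 in the other kept wells and 1.05 in the dropped wells, and 64 of the 130 dropped wells scored at or above the lowest member. In the first score, the last dropped well had 0.721 and the next well 0.701. The scores had a Pearson correlation of 0.505 over the 1155 wells, which share libraries and depth. Results below are given against all other wells or the other kept wells and, for the lists and most named genes, against the dropped wells too.

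Members made up between 7.83% (9 of 115 wells, Wilson 95% interval 4.17% to 14.2%) and 12.6% (22 of 175 wells, 8.45% to 18.3%) of the fibroblast-named wells of a library. Summed over wells, members held between 216612 and 742558 UMIs per library and 3354239 in all, and the dropped wells held 4466257 in all. The median member well held between 12065 and 51025 UMIs, and the median of all other fibroblast-named wells lay between 12115 and 32590 UMIs. That difference did not pass the exact sign-flip permutation test over 7 libraries (two-sided p = 0.125, 0.2 after adjustment over 8 well measures). The smallest p that 7 libraries can give is 0.0156.

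All 7 fibroblast markers used were found in members, and they moved in both directions. The summed level of 7 fibroblast markers (Col1a1, Col1a2, Col3a1, Pdgfra, Lum, Dcn and Twist2) was 49014 to 66897 CPM in members and 42829 to 53895 CPM in all other fibroblast-named wells. These ranges overlap, and the 3 collagens made up most of the sum. Against all other wells 4 of the 7 were higher and 2 (Twist2 and Lum) lower. Of 7 markers of dermal condensates, Sox18 and Fgf20 had 0 UMIs in members, Sox2 had 1, Foxd1 2, Prdm1 7, Cxcr4 9 and Bmp4 83. Together the 7 lay between 4.62 and 86.9 CPM in members and between 61.7 and 102 CPM in the others, which overlap, and all 3 that were tested were lower in members. Of 8 pericyte and smooth muscle markers, 7 were tested and all 7 were higher in members than in all other wells, with a summed level of 353 to 525 CPM against 204 to 257 CPM. Rgs5, a defining pericyte gene, had 1 UMI in all members together. Cspg4, a proteoglycan of pericytes, was at 96.9 CPM (35.8 to 153) in members and 53.4 CPM (41.9 to 70.8) in the other kept wells, given here and below as the median with the lowest and highest of 7 libraries. Only 3 of the 7 were higher, and 1 lower, against the dropped wells. The part of such cells in the results below was not tested. The 6 skeletal muscle markers together were at 10.4 to 55.4 CPM in members, 4.403 to 17.5 CPM in all other wells and 1.99 to 36.8 CPM in the dropped wells. Of 2 tested, Acta1, an actin of skeletal muscle with 25 UMIs in members, was higher than in all other wells (log2 fold change 2.17 ± 0.64, adjusted p = 0.012), and Pax7 had 0 UMIs in members, Myod1 3 and Myog 10. The call for Acta1 was lost with 80 members and without library 5 (edgeR adjusted p = 0.135 and 0.056). The part of muscle cells was not tested either. Summed endothelial markers were at 2.91 to 24.3 CPM in members and 7.34 to 15.8 CPM in the others, immune markers at 0 to 14.5 against 7.83 to 15.5, Schwann cell markers at 4.03 to 16.2 against 4.11 to 23.9, and melanocyte markers at 4.62 to 32.8 against 11.4 to 276. Epidermal markers ranged from 10.1 to 807 CPM in members and from 32.0 to 409 CPM in the others, with 0 of 5 tested called by edgeR or DESeq2 and 1 higher at an unadjusted p under 0.05 in edgeR. In sums over wells, fewer cells with a gene and less RNA per cell cannot be told apart.

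Members differed from the other fibroblast-named wells in genes of matrix, signalling and growth, in both directions. UMIs were summed within each library, and all genes were tested with the quasi-likelihood method of edgeR, blocked by library, at a Benjamini-Hochberg adjusted p of 0.05. Unless another test is named, an adjusted p is from that test. Errors of log2 fold changes are standard errors worked back from its F statistic, with variance estimates moderated over genes. They are not the spread over the 7 libraries. The 8 score genes are left out of every count. Against all 1035 other wells, 1255 of 10755 genes were higher in members (11.7%) and 1243 were lower (11.6%). Against the other kept wells, 1592 of 10604 genes were higher (15.01%) and 1522 lower (14.4%). Against the dropped wells, 439 of 8819 genes were higher (4.98%) and 497 lower (5.64%). Counts for the gene lists below are to be read beside these shares. The median log2 fold change over all genes tested was -0.03, -0.03 and 0.0018 in these comparisons. The same member sums enter all 3, so they are not independent of each other. Against all other wells, the 4 libraries of a shared sequencing run gave 1042 higher and 886 lower genes, and the other 3 libraries gave 456 and 405. Because the score genes were named from earlier results on these same wells, the tests describe the wells that the rule picked and are no separate evidence that such a population exists.

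The 12 largest rises that met the rule for named genes were Syt13, Limch1, Cpm, Rgcc, Iqgap2, Tnc, Tenm4, Epha4, Epha3, Slit2, Ccdc3 and Angptl1, out of 150 genes that met it. For all 12, the lowest library of the members lay above the highest library of the other kept wells. The rule asked for a rise in every library and the largest were taken, so this separation largely follows from the choice. Each had a UMI in 54.2% to 91.7% of member wells. All other wells, against which the 12 were ranked, include the dropped wells, so a comparison with the latter is not separate from the choice. Of the 12, 11 were also higher than in the dropped wells (4.98% over all genes tested), and for 7 of them the libraries of the groups did not overlap. Angptl1 was the exception, with a log2 fold change of 0.0023 ± 0.11. The share of all genes without such overlap was not counted in either comparison.

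Genes of cell guidance and contact were among these rises. Slit2, a secreted repellent that signals through Robo receptors, was at 214 CPM (152 to 237) in members, 28.5 CPM (27.8 to 40.9) in the other kept wells and 63.3 CPM (53.2 to 92.03) in the dropped wells. No library of either comparison group reached the lowest member library. Its log2 fold change was 2.48 ± 0.13 against all other wells (adjusted p = 7.3e-16) and 1.50 ± 0.15 against the dropped wells (adjusted p = 1.6e-07). Epha4, a receptor for ephrins, was at 189 CPM (172 to 216) in members, 20.5 CPM (11.4 to 24.1) in the other kept wells and 129.8 CPM (77.8 to 168) in the dropped wells. Epha3, a receptor of the same family, was at 107 CPM (55.3 to 157), 11.1 CPM (8.48 to 17.1) and 47.8 CPM (35.01 to 105) in the same order, and here members and dropped wells overlapped. Against all other wells the log2 fold changes were 2.55 ± 0.12 for Epha4 and 2.52 ± 0.17 for Epha3. Tenm4, a teneurin that spans the membrane and binds other cells, was at 221 CPM (129 to 309.5) in members, 41.7 CPM (26.2 to 43.9) in the other kept wells and 48.98 CPM (31.6 to 74.4) in the dropped wells. Members stood above both groups in all 7 libraries, with log2 fold changes of 2.66 ± 0.12 and 2.16 ± 0.15.

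Syt13, a member of the synaptotagmin family of membrane proteins, had the largest of these fold changes. It was at 134 CPM (125 to 172) in members, 8.38 CPM (5.34 to 15.9) in the other kept wells and 45.8 CPM (36.8 to 75.96) in the dropped wells. The 3 groups did not overlap, and the dropped wells lay in the middle. The log2 fold change was 3.22 ± 0.16 against all other wells (adjusted p = 4.9e-16), 3.98 ± 0.17 against the other kept wells and 1.48 ± 0.16 against the dropped wells (adjusted p = 3.9e-07). A UMI of Syt13 was found in 75.8% of members, 12.9% of the other kept wells and 42.3% of the dropped wells. With every well thinned to 3000 UMIs these shares were 33.3%, 2.65% and 8.46%, in the same order.

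Limch1 and Iqgap2, both linked to the actin cytoskeleton, also had their highest level in members and their lowest in the other kept wells. Limch1 was at 174 CPM (120.03 to 201) in members, 69.6 CPM (15.9 to 105) in the dropped wells and 8.89 CPM (4.13 to 25.9) in the other kept wells. Iqgap2 was at 112 CPM (70.6 to 202), 53.2 CPM (25.4 to 67.1) and 11.6 CPM (7.91 to 17.5). Rgcc, a regulator of the cell cycle, was at 95.99 CPM (74.6 to 263), 57.02 CPM (38.9 to 75.96) and 5.93 CPM (3.49 to 7.12). The highest value of Rgcc, in library 4, was far above those of the other member libraries. All 3 genes rose against all other wells, with log2 fold changes of 3.12 ± 0.18, 2.91 ± 0.17 and 3.06 ± 0.18.

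Cpm, which encodes the membrane enzyme carboxypeptidase M, separated members from both groups. It was at 95.99 CPM (26.2 to 188) in members, 13.1 CPM (8.89 to 15.7) in the other kept wells and 3.903 CPM (0 to 9.08) in the dropped wells. The log2 fold change of Cpm was 2.97 ± 0.21 against the other kept wells (adjusted p = 2.0e-12) and 4.22 ± 0.30 against the dropped wells (adjusted p = 2.9e-10). Ccdc3, which encodes a secreted protein, was at 109 CPM (64.6 to 143) in members, 24.8 CPM (13.3 to 31.2) in the other kept wells and 20.7 CPM (17.6 to 80.5) in the dropped wells. Angptl1, an angiopoietin-like secreted protein, was at 256 CPM (206 to 309.5) in members, 251 CPM (181 to 302) in the dropped wells and 17.6 CPM (10.04 to 31.8) in the other kept wells. Its level set members and dropped wells apart from the rest and overlapped between these 2 groups.

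**Figure D1:**
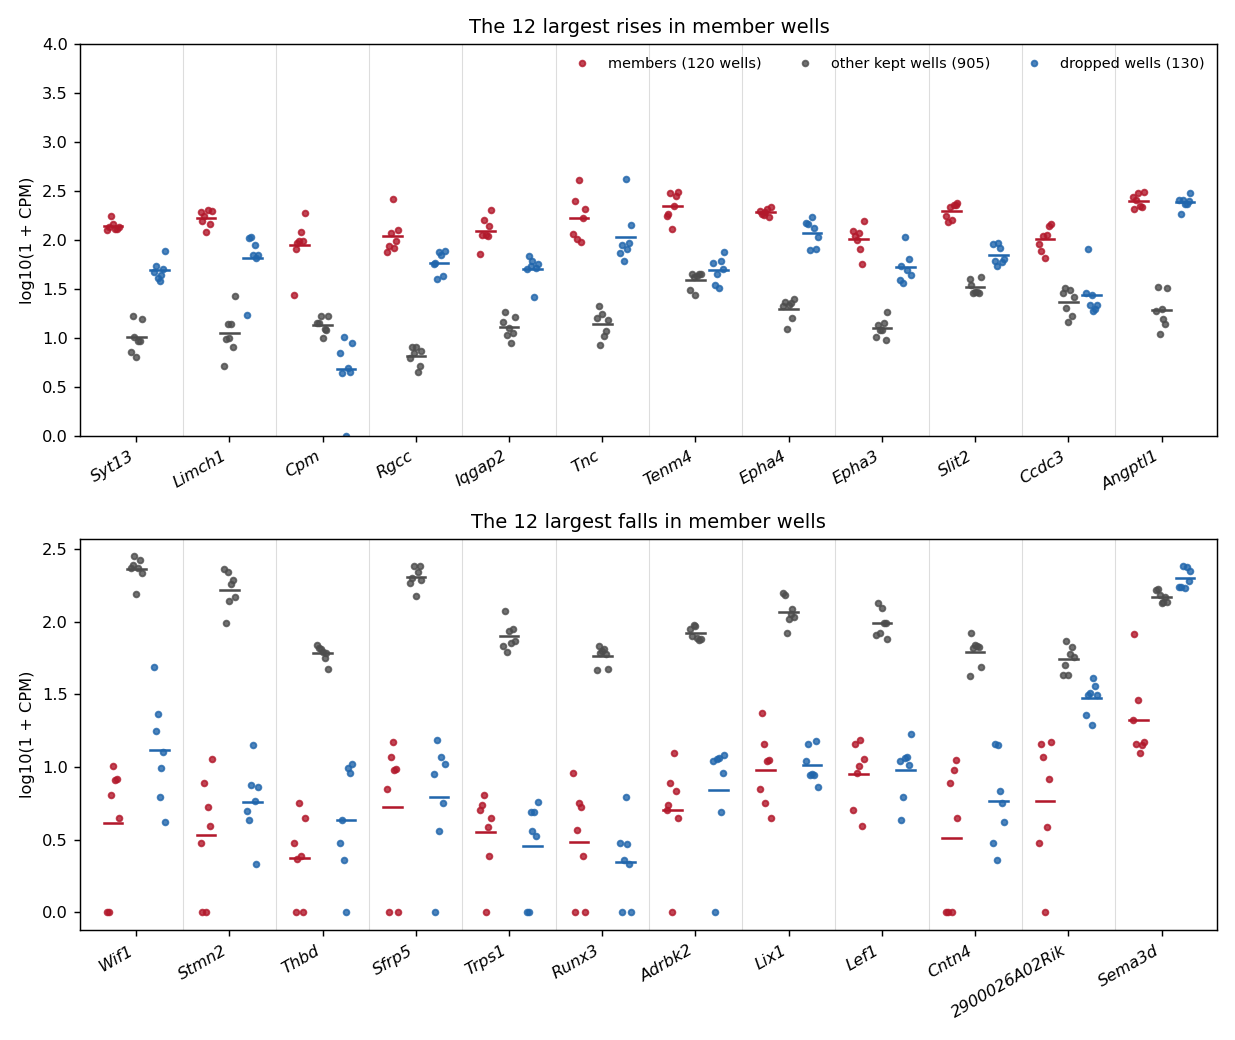
Level of the 12 largest rises (top) and 12 largest falls (bottom) as log10(1 + CPM) in 120 member wells, 905 other kept wells and 130 dropped wells. Each point is 1 of 7 libraries and each line the mean of the log values. Members lie above the other kept wells for every rise and below them for every fall, which the rule that chose these genes favours.

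The 12 largest falls included several genes of the WNT-responsive upper dermis. They were Wif1, Stmn2, Thbd, Sfrp5, Trps1, Runx3, Adrbk2, Lix1, Lef1, Cntn4, 2900026A02Rik and Sema3d, out of 141 genes that met the rule. For all 12, the highest library of the members lay below the lowest library of the other kept wells. This too largely follows from the rule that chose them, and the share over all genes was not counted. Of the 12, only 3 had enough UMIs to be tested against the dropped wells, and 2 of these (2900026A02Rik and Sema3d) were lower in members. The libraries of members and dropped wells did not overlap for 2 of the 12. Wif1, a secreted inhibitor of WNT ligands, was at 5.39 CPM (0 to 9.23) in members, 232 CPM (153 to 279.8) in the other kept wells and 11.7 CPM (3.16 to 47.8) in the dropped wells. Its log2 fold change was -5.25 ± 0.22 against all other wells (adjusted p = 1.3e-17). The value against the dropped wells, -1.62 ± 0.58, did not pass the test (adjusted p = 0.08). Sfrp5, a secreted Frizzled-related WNT inhibitor, was at 8.57 CPM (0 to 13.8) in members, 199 CPM (149 to 240.1) in the other kept wells and 7.96 CPM (0 to 14.3) in the dropped wells. Lef1, a transcription factor that carries the WNT signal to DNA, was at 9.23 CPM (2.91 to 14.3), 96.4 CPM (74.5 to 134) and 9.95 CPM (3.35 to 15.8). The log2 fold changes against all other wells were -4.46 ± 0.21 and -3.17 ± 0.23.

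Transcription factors and membrane proteins were among the other falls. Trps1, a zinc finger repressor, was at 3.48 CPM (0 to 5.39) in members and 72.8 CPM (60.5 to 117) in the other kept wells. Runx3, a Runt domain factor, was at 2.69 CPM (0 to 8.06) and 60.03 CPM (45.8 to 66.8). Thbd, which encodes thrombomodulin, had 5 UMIs in all members together, at 1.43 CPM (0 to 4.62), against 60.5 CPM (46.5 to 68.2) in the other kept wells. Stmn2, a protein that acts on microtubules, was at 2.91 CPM (0 to 10.4) and 179 CPM (96.4 to 229.7). Stmn2, Thbd, Sfrp5, Trps1, Runx3, Adrbk2, Lix1, Lef1 and Cntn4 had too few UMIs in members and dropped wells to be tested between them. The low levels of these genes in members are thus not shown to set members apart from the dropped wells.

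Sema3d, a secreted semaphorin that guides cells and axons, was lower in members than in both groups. It was at 13.9 CPM (11.4 to 80.5) in members, 148 CPM (132 to 168) in the other kept wells and 188 CPM (168 to 241) in the dropped wells. The log2 fold change was -2.78 ± 0.21 against the other kept wells (adjusted p = 4.2e-12) and -3.34 ± 0.26 against the dropped wells (adjusted p = 2.1e-09). The gene 2900026A02Rik was also lower than in both groups, at 7.27 CPM (0 to 13.9) in members, 56.3 CPM (41.7 to 72.4) in the other kept wells and 30.2 CPM (18.4 to 40.01) in the dropped wells.

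Between members and dropped wells, the genes that moved most included a posterior Hox gene, a basement membrane collagen and genes of the fascia. The 8 rises and 8 falls named here follow a rule of the same kind, chosen after the values had been seen. The first score chose the dropped wells, and members came from the wells that it left. Differences in genes that go with that score are thus partly fixed by the rule. Apart from Cpm, the rises were Hoxc10, Gdnf, Spon1, Nrn1, Col8a1, Cyth3 and Col4a1. Gdnf, a secreted neurotrophic factor, was at 64.5 CPM (35.8 to 94.3) in members, 15.9 CPM (12.4 to 21.5) in the other kept wells and 5.26 CPM (2.93 to 17.4) in the dropped wells. Spon1, a secreted adhesion protein, was at 214 CPM (133 to 337), 62.1 CPM (57.5 to 71.5) and 26.8 CPM (11.9 to 87.2). Members lay above both groups without overlap for both genes. The log2 fold changes against the other kept wells were 2.15 ± 0.19 and 1.96 ± 0.13, and against the dropped wells 3.28 ± 0.29 and 3.13 ± 0.26. Nrn1, neuritin, was at 133 CPM (60.02 to 183) in members and 136 CPM (126 to 189) in the other kept wells (adjusted p = 0.51), against 8.78 CPM (6.71 to 33.8) in the dropped wells.

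The falls against the dropped wells were Gata6, 9930013L23Rik, Spon2, Ly6a, Nov, Cd55, Prss23 and Efemp1. Where these genes go with the first score, their falls are no independent result. Gata6, a zinc finger transcription factor, had 3 UMIs in all members and 470 in the dropped wells, a ratio of CPM of 118 (exact 95% interval 40.0 to 573, which covers counting error only). Ly6a, which encodes the surface antigen Sca-1, was at 0 CPM (0 to 13.1) in members, 2.099 CPM (0 to 3.64) in the other kept wells and 108 CPM (15.9 to 223) in the dropped wells. Nov, a matricellular protein, was at 9.43 CPM (0 to 27.7), 8.48 CPM (5.71 to 13.7) and 195 CPM (71.6 to 832). Members and other kept wells were both low for these genes. For Nov, the log2 fold change was -2.21 ± 0.35 against all other wells, which include the dropped wells, and 0.18 ± 0.42 against the other kept wells (adjusted p = 0.8). Efemp1, a fibulin of elastic fibres, was lower in members (11.6 CPM (6.96 to 31.4)) than in the dropped wells (205 CPM (153 to 309)) and in the other kept wells (52.04 CPM (40.5 to 84.4)).

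**Figure D2:**
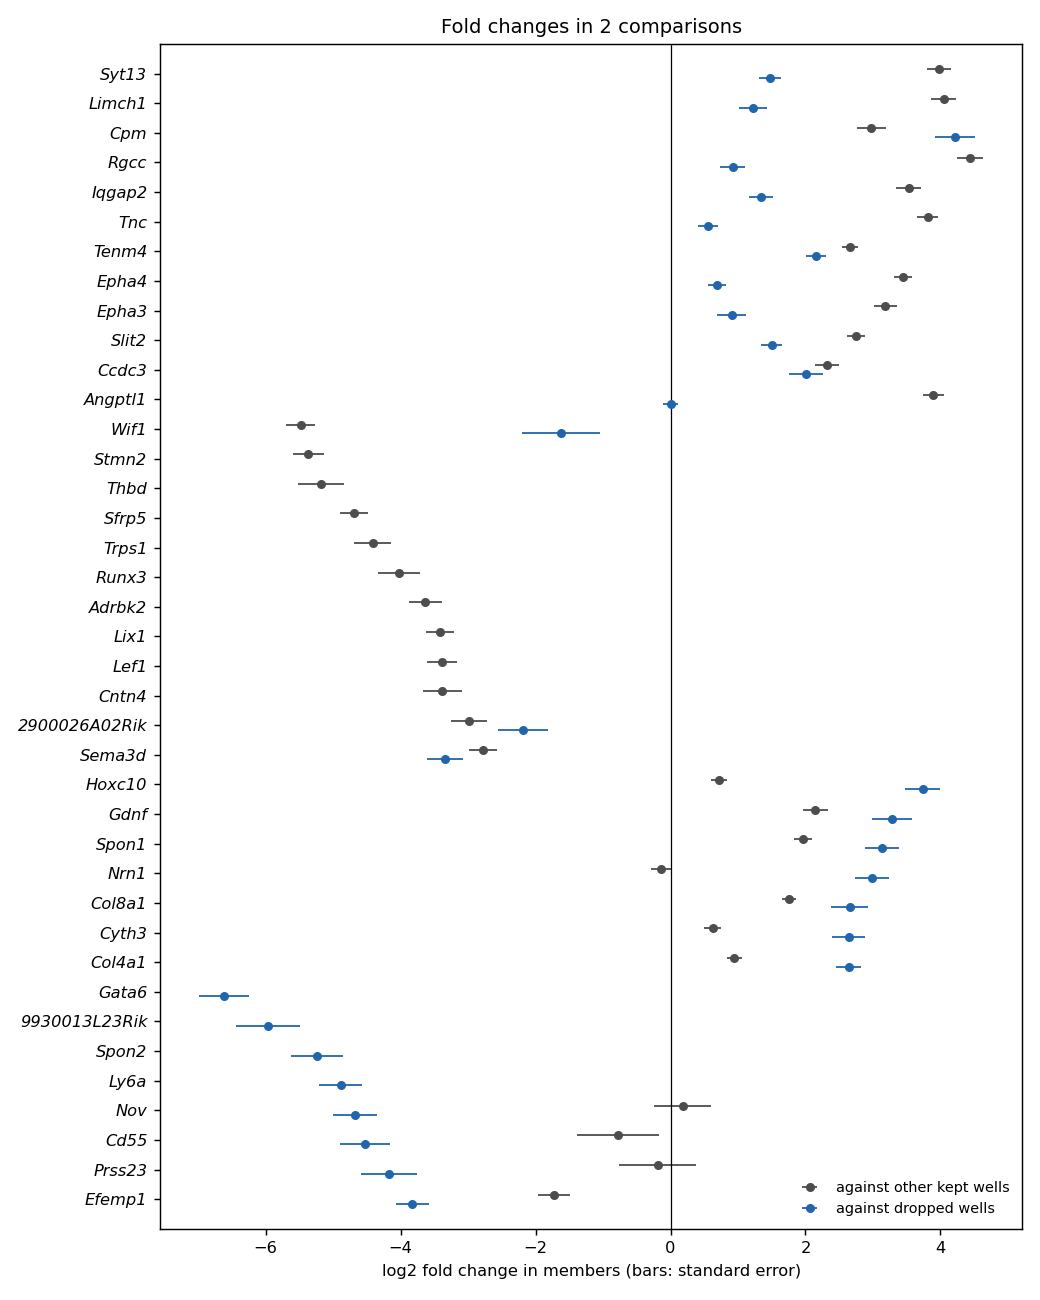
Log2 fold change of members against the other kept wells and against the dropped wells for the named genes, with standard errors. A missing point means that the gene had too few UMIs to be tested in that comparison. Syt13, Slit2, Tenm4 and Cpm lie right of 0 in both comparisons, and Angptl1 lies near 0 against the dropped wells.

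Genes of extracellular matrix were mostly higher in members than in the other wells. Of 23 collagen chains tested against all other wells, 18 were higher and 3 lower, with a median log2 fold change of 0.52. Col14a1, a collagen that decorates fibrils, was at 574 CPM (483 to 727) in members, 61.6 CPM (45.1 to 111) in the other kept wells and 595 CPM (521 to 718) in the dropped wells. Col12a1, of the same class, was at 896 CPM (815 to 1289), 279 CPM (177 to 346) and 848 CPM (572 to 1097). Members and dropped wells overlapped for both, with adjusted p of 0.87 and 0.24. In the comparison with the dropped wells 8 of 20 collagens were higher and 4 lower (median -0.03). Col6a3, a chain of beaded microfibrils, was at 1963 CPM (1468 to 2292) in members and 600.1 CPM (553 to 818) in the dropped wells, with a log2 fold change of 1.54 ± 0.09. Of 15 collagen-processing genes 10 were higher and 2 lower against all other wells. Against the dropped wells 1 was higher and 1 lower, near the shares over all genes tested (4.98% and 5.64%).

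Basement membrane genes were mostly higher in members than in all other wells, and less uniformly so against the dropped wells. Against all other wells 11 of 13 were higher and 1 lower (median 0.63), and against the dropped wells 7 of 12 were higher and 3 lower (median 0.35). Their summed level was 10396 CPM (8084 to 11534) in members and 11109 CPM (8362 to 13846) in the dropped wells, which overlap. Col4a1 and Col4a2 encode the chains of the main basement membrane collagen and lie head to head on chromosome 8 (GRCm38), with RefSeq starts 21 bases apart, at 11312826 on the minus strand and 11312805 on the plus strand. Col4a1 was at 739.6 CPM (492 to 877) in members, 379 CPM (323 to 499) in the other kept wells and 97.3 CPM (77.1 to 225) in the dropped wells. Col4a2 was at 474 CPM (210.3 to 629.7), 236 CPM (179.6 to 306) and 78.1 CPM (55.2 to 115). The log2 fold changes of Col4a1 were 0.95 ± 0.10 and 2.64 ± 0.19 against these groups, and those of Col4a2 were 0.99 ± 0.10 and 2.48 ± 0.16. Both genes were higher in 7 of 7 libraries in both comparisons. Lamb1, a laminin chain, rose against both groups (1.65 ± 0.09 and 0.45 ± 0.09), and Lamb2, a related chain, fell against both (-0.73 ± 0.12 and -0.63 ± 0.16). The call for Lamb2 against all other wells was lost in the libraries outside the shared run (edgeR adjusted p = 0.070).

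Of 21 matricellular and glycoprotein genes, 15 were higher and 3 lower against all other wells (median 1.01), and against the dropped wells 6 of 17 were higher and 4 lower (median 0.04). Postn, periostin, was at 2614 CPM (2167 to 3177) in members, 444 CPM (312 to 588) in the other kept wells and 2426 CPM (1943 to 3355) in the dropped wells. Its log2 fold change was 2.68 ± 0.07 against the other kept wells (adjusted p = 3.9e-22) and -0.0078 ± 0.079 against the dropped wells. Thbs2, a thrombospondin, was at 999 CPM (937 to 1362), 198 CPM (162 to 295) and 842 CPM (713 to 1057). Tnc, tenascin C, was at 166 CPM (94.2 to 411), 14.3 CPM (7.53 to 20.3) and 87.2 CPM (59.6 to 421). Postn, Thbs2 and Tnc were thus far above the other kept wells and overlapped with the dropped wells. Sparcl1, a relative of the collagen-binding protein Sparc, was at 688 CPM (376 to 883) in members, 163 CPM (145 to 222) in the other kept wells and 112 CPM (82.8 to 248) in the dropped wells, above both groups without overlap (log2 fold changes 1.98 ± 0.10 and 2.21 ± 0.19). Vcan, a large proteoglycan, rose against both groups, by 1.78 ± 0.09 and 0.73 ± 0.12 on the log2 scale.

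Elastic fibre genes lay between the comparison groups. Of 20 elastic fibre and lysyl oxidase genes, 14 were higher and 3 lower against the other kept wells (median 1.05), and 4 were higher and 11 lower against the dropped wells (median -0.42). Eln, elastin, was at 577 CPM (492 to 799) in members, 229 CPM (177 to 253) in the other kept wells and 865 CPM (633 to 1109) in the dropped wells, with log2 fold changes of 1.54 ± 0.08 and -0.55 ± 0.09. Emilin1, an elastic microfibril protein, was higher than in both (1.55 ± 0.10 and 0.59 ± 0.12), and Fbln2, a fibulin, was lower than in both (-0.40 ± 0.12 and -2.52 ± 0.14). The call for Fbln2 against all other wells was lost when the second score alone chose the members (edgeR adjusted p = 0.274). Of 23 matrix proteases and inhibitors 12 were higher and 4 lower against all other wells, and 3 of 22 were higher and 7 lower against the dropped wells. Timp3, an inhibitor of matrix proteases, was at 322 CPM (228 to 441) in members, 124 CPM (102 to 153) in the other kept wells and 71.3 CPM (49.8 to 184) in the dropped wells.

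**Figure D3:**
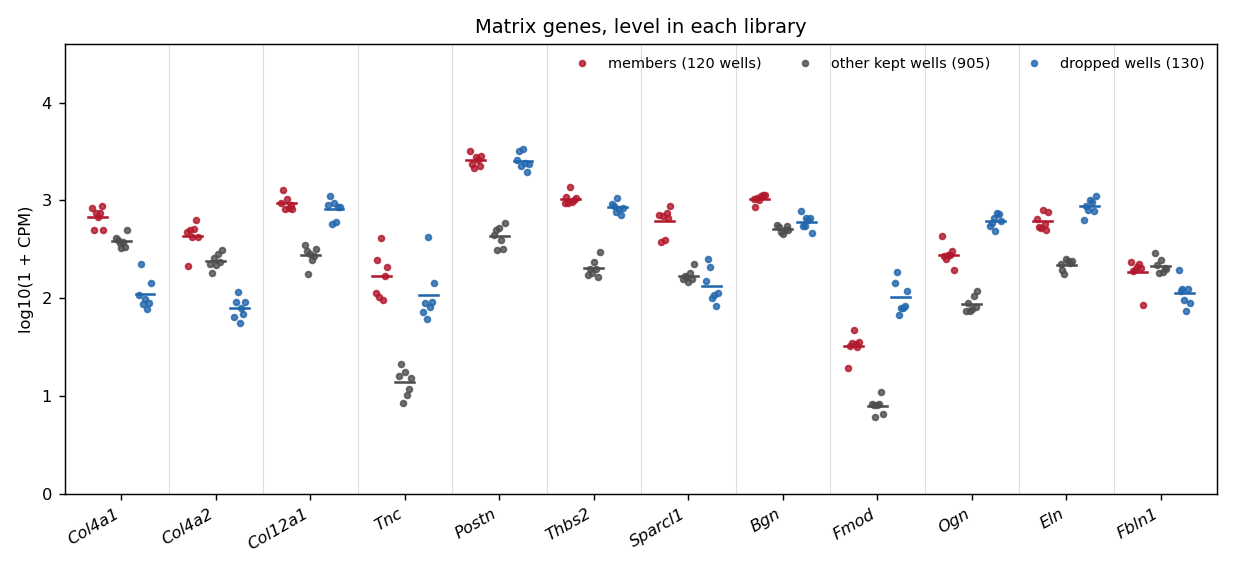
Level of matrix genes as log10(1 + CPM) in members, other kept wells and dropped wells, with 1 point per library and the mean of the log values as a line. The mean of Col4a1, Col4a2 and Sparcl1 is highest in members, Postn is as high in the dropped wells, and Fmod, Ogn and Eln are highest in the dropped wells. Tnc, Thbs2, Col12a1, Bgn and Fbln1 are shown beside them.

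Aspn and Kera belong to the small leucine-rich proteoglycans, and the other members of that family did not move together. Of 9 tested against the other kept wells, 4 were higher and 1 lower (median 0.52), and of 6 tested against the dropped wells, 2 were higher and 4 lower (median -0.75). Bgn, biglycan, was at 1065 CPM (850.2 to 1142) in members, 501 CPM (454 to 554) in the other kept wells and 627 CPM (467 to 778) in the dropped wells. It was higher than in both groups, with log2 fold changes of 1.12 ± 0.07 (adjusted p = 3.3e-14) and 0.76 ± 0.09 (adjusted p = 1.7e-06). Ogn, osteoglycin, was at 272 CPM (195 to 431) in members, 80.5 CPM (72.4 to 119) in the other kept wells and 614 CPM (481 to 747) in the dropped wells. Fmod, fibromodulin, was at 32.8 CPM (18.1 to 46.2), 7.12 CPM (5.02 to 9.94) and 82.8 CPM (66.1 to 184), and Prelp at 32.3 CPM (17.9 to 58.5), 15.9 CPM (12.7 to 31.5) and 93.4 CPM (63.1 to 135). By their medians these 3 genes took a middle place in members, with the highest level in the dropped wells. Lum, lumican, had the opposite order, at 1485 CPM (1370 to 1618) in members, 1916 CPM (1788 to 2068) in the other kept wells and 950.5 CPM (849 to 1222) in the dropped wells. Dcn, decorin, was at 3942 CPM (2511 to 4342) in members and 3889 CPM (3081 to 4126) in the other kept wells, with a log2 fold change of -0.009 ± 0.064 (adjusted p = 0.94).

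Nppc acts through the receptor Npr2 and is cleared by Npr3. Of 6 tested genes of natriuretic peptides and cyclic GMP, 2 were higher in members than in all other wells and 0 lower, and against the dropped wells 0 of 5 were higher and 1 lower. Npr3 was at 71.4 CPM (26.8 to 108) in members, 16.5 CPM (12.4 to 24.1) in the other kept wells and 63.1 CPM (33.5 to 102) in the dropped wells, with a log2 fold change of 1.35 ± 0.19 against all other wells (adjusted p = 2.6e-06). Furin, a protease that cleaves precursor proteins, was the other gene that rose, by 0.59 ± 0.15. In the 3 libraries outside the shared run alone, neither passed (edgeR adjusted p = 0.086 and 0.105). Npr2 was at 73.04 CPM (55.4 to 127) in members and 79.02 CPM (60.5 to 111) in the other kept wells, and its log2 fold change of 0.061 ± 0.12 against all other wells did not pass the test (adjusted p = 0.78). Prkg1, a kinase activated by cyclic GMP, was at 10.8 CPM (0 to 20.2) in members and 40.8 CPM (20.1 to 60.5) in the dropped wells, lower in members with a log2 fold change of -1.84 ± 0.32 (adjusted p = 2.1e-04).

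By layer of the dermis, members were low for genes of the upper dermis against all other wells and low for genes of the lower dermis and fascia against the dropped wells. Of 19 upper dermis genes, 16 were lower and 1 (Nkd2) higher against all other wells (median -1.91). The comparison with the dropped wells had the other sign, with 5 of 12 higher and 2 lower (median 0.61). Crabp1, a carrier of retinoic acid, was at 375 CPM (143 to 452) in members, 2934 CPM (2434 to 3406) in the other kept wells and 176 CPM (57.02 to 213) in the dropped wells. Its log2 fold change was -3.07 ± 0.10 against the other kept wells and 0.96 ± 0.15 against the dropped wells. Twist2, a transcription factor of dermal fibroblasts, was at 362 CPM (184 to 412), 1201 CPM (1025 to 1355) and 464 CPM (258 to 573). Of 14 lower dermis and fascia genes, 4 were higher and 9 lower against all other wells (median -2.06). Against the other kept wells, 5 of 10 were higher and 3 lower (median 0.35). Against the dropped wells, 11 of 12 were lower and 0 higher (median -2.61). The first score chose the dropped wells with Mfap5, a gene of the fascia, among others, so that this count is no independent result. Dlk1, a protein of precursor cells, was at 7477 CPM (4021 to 8319) in members, 2275 CPM (1788 to 3065) in the other kept wells and 8212 CPM (6205 to 9240) in the dropped wells.

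Kera is also expressed in tendon. Of 6 tendon genes tested, 5 were higher and 0 lower against all other wells, among them Fmod, which is in the proteoglycan list too, and the immediate early genes Egr1 and Egr2, which many cells express. The call for Fmod (adjusted p = 0.045) was lost with DESeq2 (adjusted p = 0.055) and without library 3, 4, 5, 6 or 7 (edgeR adjusted p up to 0.22). Of 5 tendon genes tested against the dropped wells, 1 was higher (Egr2) and 1 lower (Fmod). The summed level of the 5 tendon markers Fmod, Mkx, Scx, Thbs4 and Tnmd was 79.96 to 203 CPM in members, 28.9 to 63.6 CPM in all other wells and 75.2 to 238 CPM in the dropped wells, so that members and dropped wells overlapped. The tendon factor Scx had a UMI in 10.8% of members and 0.552% of the other kept wells, with 31 UMIs in all members together. In the dropped wells the share was 3.08%, with 6 UMIs, too few for a test against members. Its log2 fold change was 4.37 ± 0.68 against all other wells (adjusted p = 1.0e-05), higher in 6 of 7 libraries. Thbs4, a thrombospondin of tendon, was at 63.3 CPM (19.99 to 138) in members, 4.93 CPM (2.22 to 7.696) in the other kept wells and 23.9 CPM (3.89 to 77.5) in the dropped wells. Tnmd, which marks mature tendon cells, was at 17.1 CPM (3.48 to 42.3) in members and 11.9 CPM (6.23 to 23) in the other kept wells and did not pass the test (adjusted p = 0.1). Mkx had 7 UMIs in members and was not tested. Sox9, a factor of cartilage and tendon precursors, was at 87.5 CPM (18.6 to 149.6) in members, 10.4 CPM (8.21 to 18.2) in the other kept wells and 44.7 CPM (23.5 to 267) in the dropped wells. With every well thinned to 3000 UMIs the rise of Sox9 against all other wells was lost (edgeR adjusted p = 0.10). Acan, a defining cartilage gene, had 1 UMI in members.

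Signalling genes moved in both directions. Of 39 WNT genes tested against all other wells, 15 were higher and 10 lower (median 0.14), and against the dropped wells 6 of 32 were higher and 8 lower. The targets Axin2 and Nkd1 fell, with log2 fold changes of -1.27 ± 0.19 and -1.98 ± 0.15, as did Lef1 and Wif1. Sfrp2, a secreted WNT modulator, rose by 1.07 ± 0.10, and Lgr5, a receptor for R-spondins, by 1.84 ± 0.15. Lgr5 was at 122 CPM (98.8 to 134) in members, 15.7 CPM (12.9 to 27.5) in the other kept wells and 121 CPM (33.5 to 153) in the dropped wells. Of 28 BMP genes 10 were higher and 8 lower, among the latter the secreted inhibitor Fst (-1.98 ± 0.23). In the comparison with the dropped wells 2 of 25 BMP genes were higher and 6 lower (4.98% and 5.64% over all genes tested). Against the dropped wells, 2 of 18 TGF-beta and activin genes were higher and 0 lower (4.98% and 5.64% over all genes tested). Of 20 tested against all other wells, 7 were higher and 3 lower. The receptor Tgfbr2 rose by 1.08 ± 0.10, and Inhba, an activin subunit, had a log2 fold change of -1.88 ± 0.31.

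Of 16 FGF genes, 5 were higher and 5 lower against all other wells, and 6 of 15 were higher and 3 lower against the dropped wells. Fgf7, a ligand that acts on epithelium, was at 65.4 CPM (48.4 to 103) in members, 2.97 CPM (1.45 to 6.297) in the other kept wells and 50.6 CPM (38.1 to 69.97) in the dropped wells. The receptor Fgfr2 was at 39.1 CPM (13.9 to 52.4), 162 CPM (154 to 199.7) and 34.99 CPM (15.8 to 57.7). For both genes members overlapped with the dropped wells and not with the other kept wells, in opposite directions. Of 10 hedgehog genes 2 were higher and 3 lower against all other wells (11.7% and 11.6% over all genes tested). Against the dropped wells 3 were higher and 0 lower (4.98% and 5.64% over all genes tested). Gli1, a target and effector of the pathway, was at 14.3 CPM (9.23 to 42.3) in members, 84.5 CPM (63.7 to 88.7) in the other kept wells and 7.91 CPM (2.63 to 15.9) in the dropped wells.

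Of 11 Notch genes 4 were higher and 1 lower against all other wells, and 4 of 9 were higher and 3 lower against the dropped wells. Notch1, a receptor, was at 76.1 CPM (63.99 to 120.03) in members, 21.0 CPM (14.2 to 29.4) in the other kept wells and 9.33 CPM (6.83 to 39.8) in the dropped wells. Members lay above both groups without overlap, with log2 fold changes of 2.04 ± 0.16 (adjusted p = 2.3e-11) and 2.48 ± 0.29 (adjusted p = 1.2e-06). Of 28 guidance genes 10 were higher and 8 lower against all other wells, and 8 of 27 were higher and 6 lower against the dropped wells. The semaphorin Sema6d was among the lower ones, at 22.8 CPM (6.96 to 29.6) in members, 173 CPM (151 to 198) in the other kept wells and 9.33 CPM (0 to 11.9) in the dropped wells.

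Of 14 chemokine and cytokine genes 6 were higher and 0 lower against all other wells, and of 14 proteoglycan core genes 10 were higher and 0 lower. In the comparison with the dropped wells 5 of 12 chemokine and cytokine genes were higher and 4 lower (median -0.16), and 4 of 14 proteoglycan core genes were higher and 1 lower (median 0.24). Cxcl12, a chemokine, was at 236 CPM (216 to 344) in members, 193 CPM (158 to 240.3) in the other kept wells and 72.2 CPM (34.8 to 122) in the dropped wells. Its call against all other wells was lost in the libraries outside the shared run (edgeR adjusted p = 0.219). It was also lost when the second score alone chose the members (edgeR adjusted p = 0.286). Among 31 adhesion genes, 9 were higher and 6 lower against all other wells, and 9 of 29 were higher and 4 lower against the dropped wells. Cdh3, P-cadherin, was at 43.6 CPM (36.4 to 189), 2.74 CPM (0.689 to 8.395) and 23.5 CPM (13.9 to 76.3), highest in members. Cd44, a receptor for hyaluronan, was at 79.99 CPM (43.6 to 115), 212 CPM (163 to 248) and 532 CPM (449 to 679), lowest in members without overlap.

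**Figure D4:**
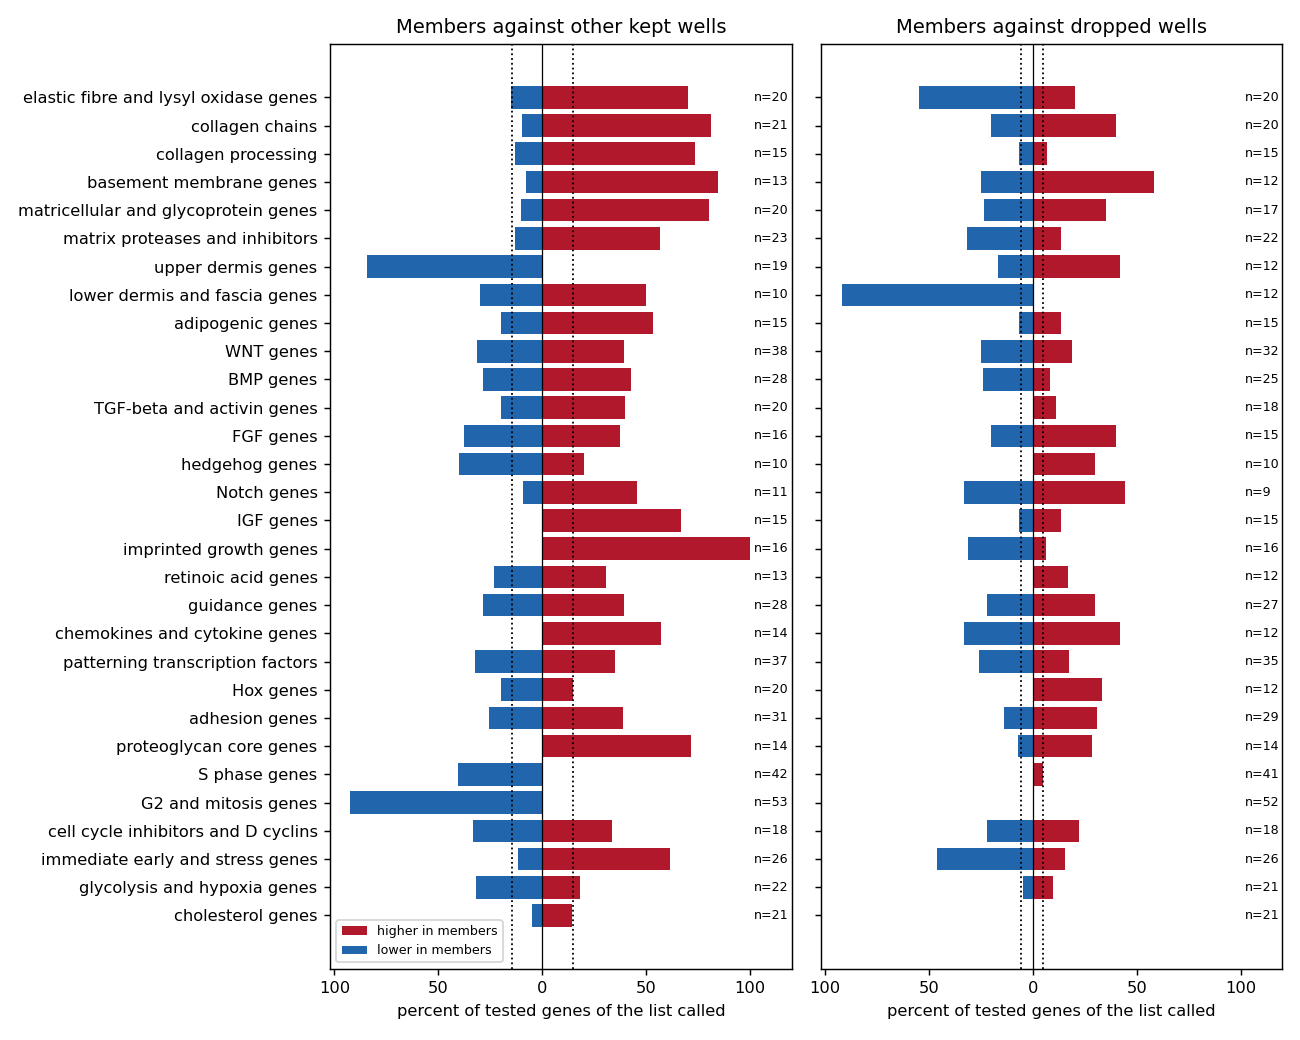
Percent of the tested genes of each list that were higher or lower in members against the other kept wells and against the dropped wells, with dotted lines at the percent over all genes tested and n as the number tested. All 16 imprinted growth genes are higher than in the other kept wells, and 49 of 53 G2 and mitosis genes are lower there, with 0 of 52 called by edgeR against the dropped wells.

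Posterior Hox genes differed between members and dropped wells. Of 20 Hox genes tested against all other wells, 4 were higher and 2 lower (11.7% and 11.6% over all genes tested). Against the dropped wells 4 of 12 were higher and 0 lower (4.98% and 5.64% over all genes tested). The 4 were Hoxa9, Hoxa10, Hoxc9 and Hoxc10. Hoxc10 was at 103 CPM (36.9 to 151) in members, 68.5 CPM (34.7 to 99.1) in the other kept wells and 6.33 CPM (2.63 to 23.5) in the dropped wells. Hoxa10 was at 55.2 CPM (20.9 to 69.2), 20.8 CPM (16.5 to 24.4) and 2.63 CPM (0 to 6.33). Against the dropped wells their log2 fold changes were 3.74 ± 0.26 and 3.98 ± 0.42 (adjusted p = 2.6e-10 and 2.4e-07), and against the other kept wells 0.72 ± 0.12 and 1.32 ± 0.20, higher in 7 of 7 libraries each time. Hoxa9 was at 28.3 CPM (17.4 to 41.5) in members and 29.8 CPM (18.2 to 43.6) in the other kept wells (adjusted p = 0.94), against 4.88 CPM (0 to 6.48) in the dropped wells. The dropped wells were thus the group low in these genes. Against all other wells, the rises of Hoxa10 and Hoxc10 were lost when members were chosen from thinned scores (edgeR adjusted p = 0.244 and 0.151). Both were also lost when the second score alone chose the members, with no wells dropped first (edgeR adjusted p = 0.607 and 0.084). Hoxc10 was further lost in the libraries outside the shared run and with wells thinned to 3000 UMIs (edgeR adjusted p = 0.058 and 0.131). Of 37 patterning transcription factors, 9 were higher and 11 lower against all other wells, and 6 of 35 were higher and 9 lower against the dropped wells. Nfia rose by 1.23 ± 0.07 and Zfhx4 by 1.68 ± 0.09 on the log2 scale.

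Genes of growth were high in members and genes of division low. Of 16 imprinted growth genes 14 were higher and 0 lower against all other wells (median 1.08), and all 16 were higher against the other kept wells (median 1.46). In the comparison with the dropped wells 1 was higher and 5 lower (median -0.03). Igf2, an insulin-like growth factor, was at 9401 CPM (6638 to 10747) in members, 2893 CPM (2549 to 4085) in the other kept wells and 8248 CPM (6199 to 10898) in the dropped wells. H19, a noncoding RNA of the same imprinted region, was at 9311 CPM (5849 to 10863), 2877 CPM (1946 to 4071) and 8503 CPM (5556 to 11150). Both overlapped with the dropped wells, with log2 fold changes of 0.04 ± 0.053 and 0.037 ± 0.056. Cdkn1c, an imprinted inhibitor of cell division, was at 3244 CPM (2341 to 4473) in members, 1186 CPM (896 to 1716) in the other kept wells and 5026 CPM (3926 to 6287) in the dropped wells. Of 15 IGF genes, 9 were higher and 0 lower against all other wells. Against the dropped wells 2 were higher and 1 lower (4.98% and 5.64% over all genes tested).

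Of 53 G2 and mitosis genes, 49 were lower and 0 higher against all other wells (median -0.89), and of 42 S phase genes 13 were lower and 0 higher (median -0.28). Against the dropped wells, 0 of 52 G2 and mitosis genes were called by edgeR and 0 by DESeq2, with 6 lower at an unadjusted p under 0.05 in edgeR. In that comparison 2 of 41 S phase genes were higher and 0 lower (4.98% and 5.64% over all genes tested). Ccnb1, cyclin B1, was at 44.3 CPM (30.97 to 74.2) in members, 165 CPM (143 to 186) in the other kept wells and 82.99 CPM (27.3 to 139) in the dropped wells. Ccnd1, cyclin D1, was lower than in both groups, at 141 CPM (93.9 to 216), 379 CPM (331 to 493) and 308 CPM (207 to 362) (log2 fold changes -1.35 ± 0.11 and -1.02 ± 0.12). Cdkn1a, an inhibitor of division, was also lower, at 9.23 CPM (0 to 20.2) in members and 59.9 CPM (33.4 to 88.3) in the other kept wells.

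Shares of UMIs were also compared well by well. The median share from G2 and mitosis genes was 0.142% to 0.220% in members and 0.258% to 0.535% in all other wells, lower in 7 of 7 libraries (exact sign-flip permutation p = 0.0156, adjusted 0.03125 over 8 measures). The share from S phase genes was 0.139% to 0.217% against 0.246% to 0.377%, also lower in 7 of 7 (exact permutation p = 0.0156, adjusted 0.03125). Ribosomal protein genes took 8.34% to 10.3% of UMIs in members and 9.71% to 11.9% in the others, lower in 7 of 7 libraries with the same p. The difference of members minus others was -1.22 ± 0.566 percentage points (mean ± SD over libraries). At 3000 UMIs per well, members had a median of 1461 to 1573 genes and the others 1541 to 1601, a difference of -44.4 ± 23.1 genes and lower in 7 of 7 libraries, again with the same p. Shares of mitochondrial RNA (5.33% to 6.88% against 5.14% to 6.87%) did not pass the exact permutation test (p = 0.547), and neither did shares of spike-in RNA (p = 0.297). Members and dropped wells were not tested against each other in these measures. The dropped wells had a lower share from ribosomal protein genes than members in 7 of 7 libraries, at 7.03% to 9.19%. Their shares from G2 and mitosis genes (0.138% to 0.672%) and S phase genes (0.161% to 0.352%) and their genes at 3000 UMIs (1481 to 1583) overlapped with those of members. Shares from G2 and mitosis genes were lower in members than in dropped wells in 4 of 7 libraries, those from S phase genes in 5 and genes at 3000 UMIs in 4.

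**Figure D5:**
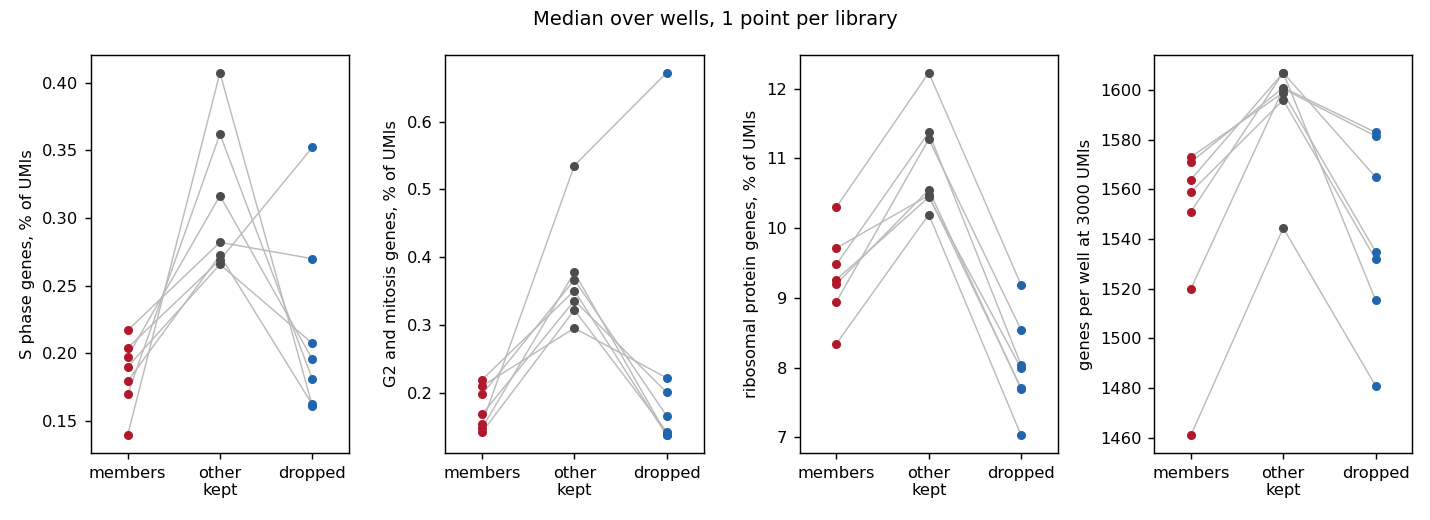
Median over wells of well measures in members, other kept wells and dropped wells, with 1 point per library and lines that join the groups of a library. The vertical axes do not start at 0. Members lie below the other kept wells in all 7 libraries for the shares of G2 and mitosis, S phase and ribosomal protein genes and for genes at 3000 UMIs.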

How the data were processed

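The single-cell table holds 20370 rows for 1967 wells of 9 libraries (20284 genes, with eGFP counted among them, and 86 spike-ins). Of these libraries, 7 hold fibroblast-named wells with enough UMIs. The authors deposited expected counts: every value above 0 equals a whole number of UMIs corrected for collisions among 4096 tags, within 0.005. There were 7105085 values above 0 in the columns matched to a library, which include wells whose name begins with DC. Before testing, each value was rounded, which altered 13.6% of those above 0. The design had assumed plain counts, and the tests are the same. The only genome build in the submitters' processing notes is mm10, and they also list BWA 0.6.2-r126, Cufflinks 2.1.1, TopHat2 2.0.3 and Bowtie2 and state no role. The 12 bulk samples were not analysed here. The 228 columns that matched no name pattern were left out. Wells whose name begins with DC matched a pattern and were not analysed here either. No pair of wells held identical values (0 pairs).

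Counts were summed over members and over comparison wells of each library (at least 5 wells per sum) and tested with edgeR 4.0.16 in R 4.3.3 (TMM, filterByExpr, library as a block, Benjamini-Hochberg at 0.05). The block is the pairing: both sums of a pair come from the same library. Libraries 3, 5, 6 and 7 share a sequencing run by their labels. DESeq2 1.42.0 was an alternative, and others were RLE scaling, no filter, other numbers of members, other score genes, thinning and leaving out libraries. Well measures were compared by exact sign-flip permutation over libraries (scipy 1.17.1). Scripts were tested on simulated data. The members and gene lists were chosen with earlier results of these data known. Named genes had adjusted p under 0.05 and the same sign against all other wells and the other kept wells, a log2 change of 1 or more, 1 direction in all libraries and an average log2 CPM of at least 5, or were among the 2 per direction with the smallest p in a list. Acta1, Col4a2, Col6a3, Sparcl1, Eln, Axin2, Nkd1, Fbln1, Egr1, Egr2, Hoxa9 and Hoxc9, and the genes named against the dropped wells, were chosen after their values were seen. Promoter windows are from RefSeq (GRCm38.p6).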

Additional observations from a re-analysis of the deposited data

Results flagged for a closer look

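In 6 of 49 groups of 7 libraries, the highest member library stood apart from the others by Dixon's criterion, which chance meets in about 1 of 20 groups. For Syt13 this was library 3, at 172 CPM. For Rgcc it was library 4, at 263 CPM. Library 2 stood apart for Sema3d (80.5 CPM), 9930013L23Rik (4.47 CPM, a single UMI) and Cd55 (13.4 CPM). Gata6 was at 4.62 CPM in library 4, which rests on few UMIs. For Syt13 and Rgcc the other member libraries also lay above all libraries of the other kept wells, and for Sema3d the value of library 2 was still below all of theirs.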

How the results depend on the processing

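The numbers of called genes moved by more than 1.5 times under a few settings. With the 3 libraries outside the shared run, 456 genes were higher and 405 lower against all other wells, and 595 and 476 against the other kept wells. With every well thinned to 3000 UMIs the counts were 364 and 425, and 432 and 473, of 5271 and 4800 genes tested. Without the replicate block, 291 and 327 genes were called against the dropped wells (7054 tested). The other counts moved by no more than 1.5 times in that setting, to 1152 and 921 against all other wells and 1380 and 1131 against the other kept wells. Leaving out each library in turn gave 1008 to 1231 higher and 983 to 1176 lower genes against all other wells, 1314 to 1561 and 1246 to 1466 against the other kept wells, and 311 to 452 and 379 to 522 against the dropped wells.

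For the well measures, the mean difference of members minus others ranged without 1 library from -48.2 to -38.5 for genes at 3000 UMIs, from -0.162 to -0.106 percentage points for G2 and mitosis genes, from -0.116 to -0.0868 for S phase genes and from -1.40 to -1.10 for ribosomal protein genes. It ranged from 3286 to 6749 for UMIs per well, from 177 to 403 for genes per well, from -0.175 to 0.0152 for mitochondrial RNA and from -0.0719 to -0.0256 for spike-ins.

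Of 3309 values for single genes against all other wells under an alternative, 3182 kept direction and side of the threshold, 122 no longer passed, 4 newly passed and 1 reversed. The reversal was Klf5, at 0.14 (edgeR adjusted p = 0.705), when members were chosen by the second score alone, an alternative added after seeing the data that shares 82 of the 120 members. The libraries outside the shared run lost 28 calls and thinning lost 17. The call for Fmod against all other wells was lost under several settings, among them DESeq2 (adjusted p = 0.055), as were those of Lum (DESeq2 0.098) and Nkd2 (0.79 when thinned). All 384 values against the other kept wells and all 174 against the dropped wells, for the genes with the largest changes, kept direction and call under the alternatives run. DESeq2 called 1184 higher and 1044 lower genes against all other wells. Choosing sums of at least 10 wells left out library 7 and is the same as leaving it out. In simulated counts, 77.5%, 80% and 75.5% of genes changed by 2-fold were recovered in the 3 comparisons, and 27%, 35% and 11% of those changed by 1.5-fold. The simulation gave all genes the same dispersion and had no library effect, unlike the data. It was not split by level or depth, so it does not show which genes are missed. The cause of the changes with other settings was not tested, beyond the smaller numbers of libraries and genes given.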

Other observations

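Genes of retinoic acid handling moved in both directions in the Aspn and Kera high wells. Of 13 tested against all other fibroblast-named wells, 3 were higher and 3 lower (edgeR), and against the dropped wells 2 of 12 were higher and 0 lower. Cyp26b1, an enzyme that breaks down retinoic acid, was at 17.9 CPM (3.48 to 44.3) in members, 104 CPM (78.2 to 124) in the other kept wells and 4.75 CPM (0 to 10.5) in the dropped wells, as the median with the lowest and highest library. Of 15 adipogenic genes 6 were higher and 3 lower against all other wells. Against the dropped wells 2 were higher and 1 lower (4.98% and 5.64% over all genes tested). Ebf3, a transcription factor, was at 46.2 CPM (22.4 to 71.4) in members and 9.36 CPM (4.82 to 11.9) in the other kept wells, and Cebpd, another transcription factor, at 86.9 CPM (53.7 to 124) and 34.98 CPM (25.1 to 40.5). With wells thinned to 3000 UMIs both calls against all other wells were lost (edgeR adjusted p = 0.094 and 0.154). Ebf3 was also lost in the libraries outside the shared run (edgeR adjusted p = 0.112). Of 18 cell cycle inhibitors and D cyclins, 6 were higher and 6 lower, and against the dropped wells 4 were higher and 4 lower.

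Of 27 immediate early and stress genes, 11 were higher and 4 lower against all other wells, and against the dropped wells 4 of 26 were higher and 12 lower. Ier3, an immediate early gene, was at 518 CPM (282 to 719) in members, 212 CPM (165 to 258) in the other kept wells and 405 CPM (201 to 446) in the dropped wells. The heat shock genes Hsp90aa1 and Hspa8 were lower in members than in all other wells, with log2 fold changes of -0.33 ± 0.06 and -0.30 ± 0.06. Both calls were lost without the library block (edgeR adjusted p = 0.085 and 0.110). Of 22 glycolysis and hypoxia genes, 4 were higher and 5 lower against all other wells (11.7% and 11.6% over all genes tested). Against the dropped wells 2 of 21 were higher and 1 lower (4.98% and 5.64% over all genes tested). Of 21 cholesterol genes 2 (Abca1 and Fdft1) were higher and 1 (Apoe) lower, near the shares over all genes tested. The call for Fdft1 (edgeR adjusted p = 0.037) was lost with DESeq2 (adjusted p = 0.055) and without library 1, 4, 5, 6 or 7 (edgeR adjusted p up to 0.138). That for Abca1 was lost with wells thinned to 3000 UMIs (edgeR adjusted p = 0.116), and that for Apoe with 160 members (edgeR adjusted p = 0.078). Against the dropped wells, 0 of 21 cholesterol genes were called by edgeR or DESeq2, with 2 higher and 2 lower at an unadjusted p under 0.05 in edgeR. Apoe, which encodes a lipid carrier, was at 55.2 CPM (32.3 to 97.4) in members and 122 CPM (112 to 147) in the other kept wells.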
